A study of Mus musculus with 10 samples.

Results

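Transcripts of 10 genes of iron handling and of the antioxidant response driven by NRF2 were followed in lung eosinophils of P2ry14-null and wild-type (WT) mice. The genes were Fth1, Ftl1, Tfrc, Slc40a1, Hmox1, Nqo1, Srxn1, Txnrd1, Slc7a11 and Gclm, taken by symbol from the 35725 gene rows of the deposited count table, and all 10 had a row and passed the filter on low counts. The P2ry14-null group held 5 libraries from male P2ry14-null mice, and the WT group held 5 libraries from male C57BL/6J mice. The missing gene, P2ry14, codes for a cell-surface receptor that senses UDP-glucose. Both groups had the same asthma model: ovalbumin (50 µg) was instilled into the oropharynx together with Aspergillus oryzae protease (20 µg) on a pair of occasions, an aerosol of 1% ovalbumin followed 7 days after the last instillation, and eosinophils were sorted from the lungs 16 h after the aerosol. The labels give no ages, no design of the null allele, no relation between the colonies and no sort gate, and they leave unsaid whether the 5 libraries of a group are 5 mice.

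Cells take up iron bound to transferrin through the transferrin receptor, store what they do not use in the ferritin shell built of heavy and light chains, and export iron through ferroportin. Iron regulatory proteins bind hairpins called iron-responsive elements (IREs) when iron is scarce: binding near the start of a messenger blocks its translation, as for the ferritins, and binding in the tail of the transferrin receptor messenger protects it from decay. NRF2 (gene Nfe2l2) is a transcription factor held low by KEAP1 and released by oxidants and electrophiles, after which it pairs with small MAF proteins on antioxidant response elements (AREs) of genes for glutathione synthesis, thioredoxin reduction, quinone reduction and heme breakdown. Ferritin and ferroportin genes are also NRF2 targets. Eosinophils carry a strong oxidative burst and are exposed to the oxidants they make.

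P2ry14 averaged 23.2 ± 1.02 CPM (counts per 1000000 counts) in P2ry14-null libraries and 211 ± 16.0 CPM in WT libraries (SD, n = 5 each), and no P2ry14-null library exceeded 24.2 CPM while no WT library fell below 190 CPM, so every library matched its label. Total counts ran from 67.2 to 151 M (M, 1000000 reads) in P2ry14-null and from 118 to 185 M in WT libraries, and the 10 genes rested on 648 to 578058 reads per library. Eosinophil markers (Siglecf, Ccr3, Prg2, Epx, Il5ra) were present in every library, with a summed level of 3584 to 3937 CPM in P2ry14-null and 3490 to 3971 CPM in WT libraries. The 8 neutrophil genes summed to 3538 to 5288 CPM in P2ry14-null and 3557 to 4485 CPM in WT libraries, nearly all of it Retnlg, with means of 4103 CPM in P2ry14-null and 3782 CPM in WT libraries. S100a9 averaged 122 CPM in P2ry14-null and 109 CPM in WT libraries, and Ly6g, S100a8, Ngp, Ltf and Lcn2 averaged 0.569 to 6.35 CPM in P2ry14-null and 0.354 to 4.40 CPM in WT libraries, with Camp lower still. P2ry14-null library 2 stood apart in markers of other cells: its class II genes (H2-Aa, H2-Ab1, H2-Eb1, Cd74) summed to 417 CPM, against 72.3 to 116 CPM in the other P2ry14-null libraries and 103 to 140 CPM in WT libraries, and its lung epithelial genes summed to 72.0 CPM, against at most 18.1 CPM in the other P2ry14-null and 24.0 CPM in WT libraries. The lymphocyte genes of that library summed to 20.0 CPM, against at most 12.9 CPM in the other P2ry14-null and 16.1 CPM in WT libraries. Red cell transcripts, of interest because red cells carry heme, were scarce in both groups: 7 erythroid genes summed to 3.02 to 4.76 CPM in P2ry14-null and 2.53 to 4.51 CPM in WT libraries. No marker listed for these cell types was at 0 in every library.

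None of the 10 genes passed the threshold between genotypes. The edgeR quasi-likelihood test, adjusted over 15586 tested genes, called 0 of the 10 at an adjusted p of 0.05, and DESeq2 also called 0, against a background of 6 edgeR calls (0.0385% of tested genes) and 18 DESeq2 calls (0.134% of the 13421 genes with an adjusted p). At an unadjusted p under 0.05 there were 2 of the 10, Fth1 and Ftl1, both lower in P2ry14-null, where 2.67% of tested genes lay under that p on the lower side and 4.13% on either side. The median log2 fold change of the 10 genes was -0.08, beside 0.0025 over all tested genes, and 7 of the 10 lay below 0, beside 48.8% of tested genes. Without P2ry14-null library 2, edgeR called 0 of the 10 and 3 genes over all, and 3 of the 10 had an unadjusted p under 0.05. The share of all tested genes under that p was not counted without that library. One gene, Fth1, had groups whose libraries did not overlap. That was so for 0.359% of tested genes on the lower side and 0.648% on either side.

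**Figure D1:**
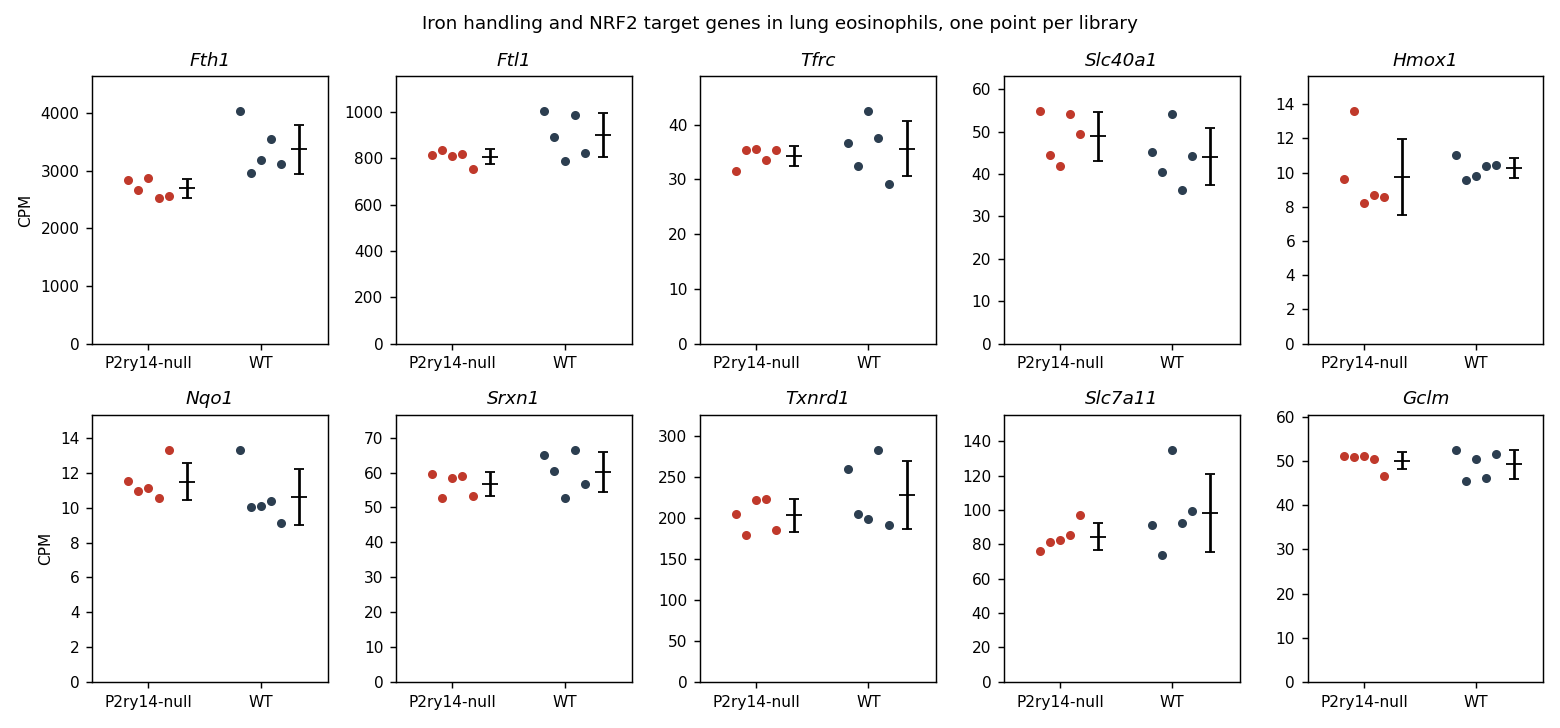
Level of each gene in CPM (y axis, from 0) in the 5 P2ry14-null (left) and 5 WT (right) libraries; points are libraries, bars the mean ± SD beside them. Fth1 is the panel in which the 2 groups of points do not overlap, and Hmox1 shows 1 P2ry14-null library at 13.6 CPM above the rest.

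**Figure D2:**
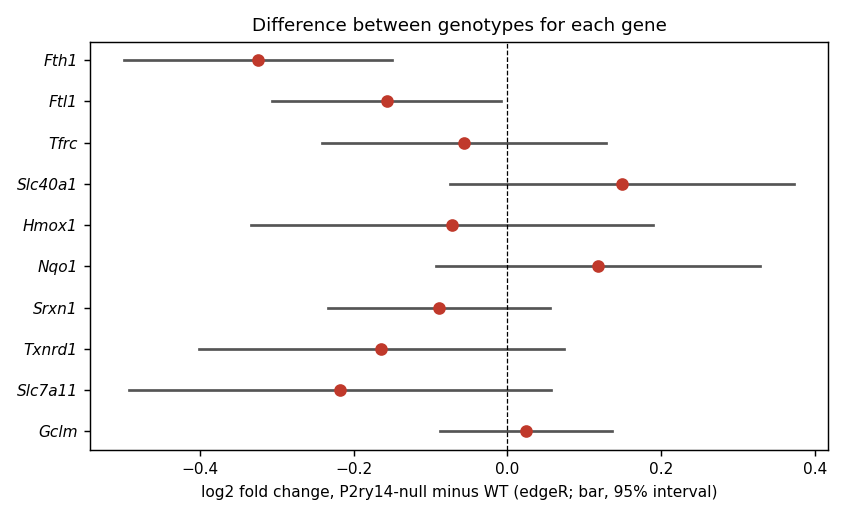
Log2 fold change of each gene, P2ry14-null minus WT, with its 95% interval from edgeR. The points run from -0.32 for Fth1 to 0.15 for Slc40a1, and the intervals of Fth1 and Ftl1 do not reach 0 before adjustment over all genes.

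The 4 iron genes share a feature that the counts do not show: each messenger is known to carry an IRE. A loop of the letters CAGTGN, with 5 paired bases on either side of it (G-U pairs allowed) and a C just before the first of them, was searched on the sense strand of GENCODE protein-coding transcripts, and 294 of 21877 genes (1.34%) held it. Of the 10 genes, Fth1, Ftl1, Slc40a1 and Tfrc held it, and these letters were not in the transcripts of the other 6. The hairpins are shown because only the 4 iron genes of the 10 held them. Capitals mark the loop, written as DNA of GRCm38.
Fth1, 5 prime UTR, chr19:9982732-9982760, plus strand: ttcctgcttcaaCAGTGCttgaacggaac
Ftl1, 5 prime UTR, chr7:45459779-45459807, minus strand: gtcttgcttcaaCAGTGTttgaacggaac
Slc40a1, 5 prime UTR, chr1:45925465-45925493, minus strand: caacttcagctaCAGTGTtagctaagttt
Tfrc, 3 prime UTR, chr16:32631219-32631247, plus strand: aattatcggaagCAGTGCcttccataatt
Tfrc, 3 prime UTR, chr16:32631598-32631626, plus strand: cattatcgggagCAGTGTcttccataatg
Tfrc, 3 prime UTR, chr16:32631663-32631691, plus strand: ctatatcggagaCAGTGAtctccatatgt
Tfrc, 3 prime UTR, chr16:32631710-32631738, plus strand: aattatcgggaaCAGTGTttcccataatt
The ferritin hairpins stand before the coding sequence, where the iron regulatory proteins act on translation, and read counts do not measure translation. The Tfrc hairpins stand behind it, where they act on messenger stability.

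Fth1 encodes the ferritin heavy chain, which oxidizes iron for storage (gene ID 14319; mm10 chr19:9980600-9985111, plus strand). In P2ry14-null libraries 1 to 5, the level was 2837, 2658, 2879, 2524 and 2565 CPM of Fth1, against 4031, 2967, 3188, 3554 and 3123 CPM in WT libraries 1 to 5. Every P2ry14-null library lay below every WT library, with WT library 1 the highest. Means were 2692 ± 159 CPM in P2ry14-null and 3373 ± 427 CPM in WT libraries (SD, n = 5 each), so P2ry14-null stood at 79.8% of the WT mean. The log2 fold change was -0.32 ± 0.08 (SE; 95% interval -0.50 to -0.15), at an edgeR adjusted p of 0.952 and a DESeq2 adjusted p of 0.0616. The unadjusted edgeR p was 0.00145, which placed Fth1 at rank 21 of 15586 tested genes, and the two-sided exact permutation p on CPM was 0.0079, the smallest that 5 against 5 libraries can give. With single libraries left out the log2 fold change ran from -0.37 to -0.25, and it was -0.25 without WT library 1. Over the alternatives tried, the adjusted p of edgeR or DESeq2 ran from 0.0616 to 1.00. The 5 mast cell and basophil markers summed to 24.7 to 41.1 CPM in P2ry14-null and 41.0 to 59.2 CPM in WT libraries. Nearly all of that sum was Hdc, at 29.3 CPM in P2ry14-null and 46.0 CPM in WT libraries, while Mcpt8, Cpa3, Ms4a2 and Fcer1a stood at 0.280 to 0.515 CPM in P2ry14-null and 0.395 to 0.585 CPM in WT libraries. Of these 5, edgeR called 0, beside 0.0385% of tested genes, and DESeq2 called 1, beside 0.134% of the 13421 genes with an adjusted p. All 5 had a log2 fold change below 0, beside 48.8% of tested genes. Among them, only Cpa3 had groups that did not overlap, beside 0.359% of tested genes on the lower side. The part of these markers in the Fth1 values was not tested. Fewer cells of a type and less RNA per cell cannot be told apart in bulk libraries.

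Ftl1 encodes the ferritin light chain, which helps iron mineralize inside the shell (gene ID 14325; chr7:45457944-45459886, minus strand). By library number, the P2ry14-null levels were 814, 838, 810, 819 and 754 CPM, against 1003, 893, 791, 989 and 824 CPM in WT libraries. The groups overlapped, since WT libraries 3 and 5 lay among the P2ry14-null values. Means were 807 ± 31.6 CPM in P2ry14-null and 900 ± 95.3 CPM in WT libraries (SD, n = 5 each). Its log2 fold change was -0.16 ± 0.07 (SE; 95% interval -0.31 to -0.0079; edgeR adjusted p = 0.999). An opposite-strand transcript model, Gm10252, shares 355 exon bases with Ftl1, and without a stated strand setting its reads cannot be told apart from those of Ftl1. Ferritin genes also have processed pseudogenes, so both counts depend on how reads matching several places were treated.

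Fth1 and Ftl1 together took 0.334% to 0.367% of all reads in P2ry14-null libraries and 0.390% to 0.496% in WT libraries, ranges that do not overlap. The ratio of Fth1 to Ftl1 reads averaged 3.34 ± 0.20 in P2ry14-null and 3.75 ± 0.30 in WT libraries (SD, n = 5 each), and the ranges, 3.08 to 3.55 in P2ry14-null and 3.32 to 4.03 in WT libraries, overlapped. These measures were formed after the Fth1 values were seen and are given without a test.

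**Figure D3:**
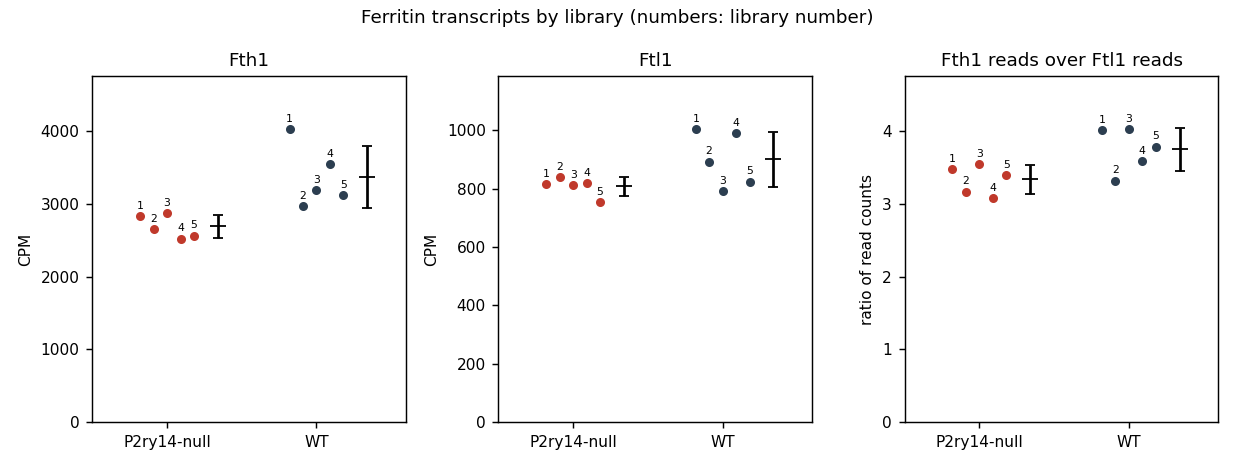
Fth1 and Ftl1 in CPM and the ratio of Fth1 to Ftl1 reads, each y axis from 0, in P2ry14-null (left) and WT (right) libraries; numbers name the library, bars are mean ± SD. P2ry14-null Fth1 lies between 2524 and 2879 CPM, below the lowest WT library at 2967 CPM, while Ftl1 and the ratio overlap between groups.

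Tfrc encodes the transferrin receptor that brings iron into the cell (gene ID 22042; chr16:32608896-32632794, plus strand). Levels in P2ry14-null libraries 1 to 5 were 31.5, 35.5, 35.5, 33.5 and 35.4 CPM, against 36.7, 32.4, 42.5, 37.6 and 29.1 CPM in WT libraries. The P2ry14-null values lay inside the WT range. The difference on the log2 scale was -0.06 ± 0.09 (SE; 95% interval -0.24 to 0.13; edgeR adjusted p = 0.999), and with single libraries left out it ran from -0.12 without WT library 5 to 0.015 without WT library 3. Leaving out WT library 2 gave -0.09, and leaving out either P2ry14-null library 1 or WT library 4 gave -0.03.

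Slc40a1 encodes ferroportin, the iron exporter (gene ID 53945; chr1:45908070-45926536, minus strand). In P2ry14-null libraries, 1 to 5, it reached 54.8, 44.5, 41.8, 54.2 and 49.4 CPM, against 45.3, 40.4, 54.3, 36.2 and 44.2 CPM in WT libraries. P2ry14-null libraries 1 and 4 and WT library 3 were the highest, and WT library 4 the lowest, so the groups overlapped. The fitted log2 fold change was 0.15 ± 0.10 (SE; 95% interval -0.07 to 0.37; edgeR adjusted p = 0.999), the largest value above 0 among the 10 genes. Leaving out WT library 4 gave 0.09, and leaving out WT library 3 gave 0.24.

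Of 24 genes of iron uptake, storage and export, which include these 4, 20 were tested and 0 were called in either direction by edgeR or DESeq2. At an unadjusted p under 0.05 there were 3, all lower in P2ry14-null: both ferritins and Slc11a1. Slc11a1, the NRAMP1 metal transporter of phagosomes, averaged 325 CPM in P2ry14-null and 384 CPM in WT libraries, a log2 fold change of -0.24 ± 0.10. The median of the list was -0.015, with 12 genes below 0 and 8 above. Of 6 genes of iron sensing and its control, 0 were called by either tool and 0 had an unadjusted p under 0.05. Fbxl5, the ubiquitin ligase subunit that turns over IRP2 when iron is plentiful, averaged 143 CPM in P2ry14-null and 152 CPM in WT libraries (log2 -0.09 ± 0.05). Epas1, a hypoxia-inducible factor, had a log2 fold change of 0.24 ± 0.18.

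Hmox1 encodes heme oxygenase 1, which opens the heme ring and frees its iron, and is a target of both NRF2 and the repressor BACH1 (gene ID 15368; chr8:75093618-75100593, plus strand). By library number, P2ry14-null levels were 9.60, 13.6, 8.21, 8.69 and 8.57 CPM, against 11.0, 9.55, 9.78, 10.4 and 10.4 CPM in WT libraries. P2ry14-null library 2 was the highest of all 10, P2ry14-null libraries 3, 4 and 5 lay below every WT library, and P2ry14-null library 1 lay just above the lowest of them. Its log2 fold change came to -0.07 ± 0.12 (SE; 95% interval -0.33 to 0.19; edgeR adjusted p = 0.999). Without P2ry14-null library 2 it was -0.22 ± 0.07, at an unadjusted p of 0.0069 and an edgeR adjusted p of 1.00. It moved towards 0 without some other libraries, to -0.0086 without P2ry14-null library 3, -0.03 without P2ry14-null library 4 or 5 and -0.04 without WT library 1. Without WT library 2 or WT library 3 it moved away from 0, to -0.09.

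The same P2ry14-null library 2 had the highest level of 7 of the 12 macrophage and monocyte markers (C1qa, C1qb, C1qc, Car4, Cd163, Fabp4 and Mrc1), while Csf1r, Spic, Vcam1, Marco and Krt79 were highest in other libraries. Mrc1, the mannose receptor, stood at 32.5 CPM there, against 5.31 to 7.86 CPM in the other P2ry14-null libraries and 6.77 to 7.997 CPM in WT libraries, and C1qa, a complement subunit of tissue macrophages, at 14.1 CPM, against at most 3.31 CPM in the other P2ry14-null and 3.10 CPM in WT libraries. The 12 macrophage and monocyte markers summed to 905 to 1125 CPM in P2ry14-null and 845 to 1022 CPM in WT libraries, mostly Car4, with means of 490 CPM in P2ry14-null and 459 CPM in WT libraries, and Csf1r, with 445 CPM in P2ry14-null and 432 CPM in WT libraries. The genes of at least 5 CPM whose levels ran most like Hmox1 across the 10 libraries, group means removed, were Arg1 (Pearson's r = 0.956), Ctsb (0.955) and the class II gene H2-Ab1 (0.946), chosen as the top 3 of 8515 genes. Without the 2 libraries farthest from the Hmox1 median these r were 0.765, 0.683 and 0.644. The part of these cells in the Hmox1 values was not tested.

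**Figure D4:**
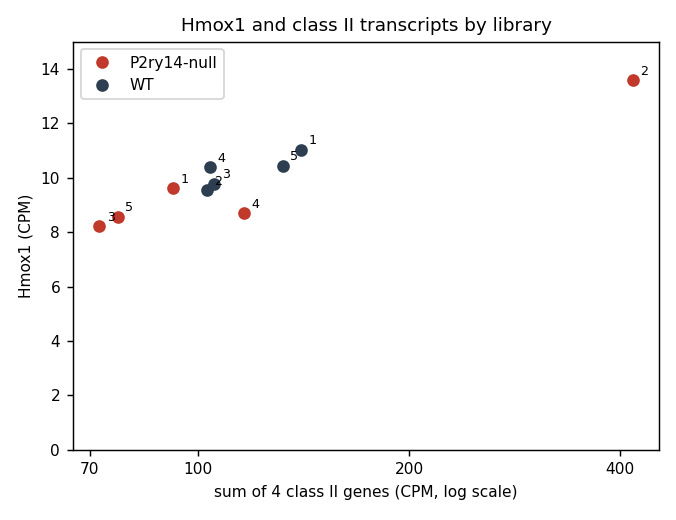
Hmox1 in CPM (y axis, from 0) against the summed CPM of 4 class II genes (x axis, log scale), 1 point per library, numbers naming the library, P2ry14-null in red and WT in dark blue. P2ry14-null library 2 stands alone at 417 CPM of class II and 13.6 CPM of Hmox1, while the other libraries lie between 72.3 and 140 CPM of class II and 8.21 and 11.0 CPM of Hmox1.

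Of 18 genes of heme synthesis, transport and breakdown, Hmox1 included, 0 were called by edgeR or DESeq2 and 0 had an unadjusted p under 0.05. The median log2 fold change was -0.0077, with 9 genes below 0 and 9 above. Blvrb, a biliverdin reductase downstream of heme breakdown, had -0.12 ± 0.07, and Fech, which places iron in the heme ring, 0.07 ± 0.04. Alas1, the first enzyme of heme synthesis, averaged 304 CPM in P2ry14-null and 312 CPM in WT libraries.

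The remaining NRF2 targets divide into thioredoxin, glutathione and quinone enzymes. ARE letters, TGACNNNGC on either strand, were searched from 250 bases before to 50 bases after each start in RefSeq promoters of GRCm38.p6, which hold entries for 8 of the 10 genes, all but Slc40a1 and Hmox1. Srxn1, Txnrd1 and Gclm matched, 3 of 8, as did 3781 of 27025 genes and 12.4% of 32851 windows. The 3 matches are shown for their letters and place. Each is read along the strand of its gene, and capitals mark the ARE letters, here in their reverse complement.
Srxn1, chr2:152105543-152105569, plus strand: cagtgggcaGCTAGGTCAgagtgagac
Txnrd1, chr10:82859105-82859131, plus strand: tggatttttGCTTTGTCAttctgacac
Gclm, chr3:122245414-122245440, plus strand: ctcccgggcGCACCGTCAactctcacg
The first capital stands at 29 bases after the start for Srxn1, 92 before a start for Txnrd1, which has 3 windows, and 134 before it for Gclm. A match is a string of letters, not a bound site. Bases outside the windows were not searched, so a gene without a match may hold the letters elsewhere.

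Srxn1 encodes sulfiredoxin, which repairs over-oxidized peroxiredoxins (gene ID 76650; chr2:152105524-152111376, plus strand). Levels of P2ry14-null libraries 1 to 5 were 59.7, 52.6, 58.4, 59.1 and 53.2 CPM, against 64.9, 60.5, 52.7, 66.6 and 56.7 CPM in WT libraries. WT libraries 1, 2 and 4 lay above all P2ry14-null libraries, and WT libraries 3 and 5 among them. The log2 fold change was -0.09 ± 0.07 (SE; 95% interval -0.23 to 0.05; edgeR adjusted p = 0.999). Leaving out WT library 4 gave -0.05, and leaving out WT library 3 gave -0.13.

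Txnrd1 encodes cytosolic thioredoxin reductase, a selenoprotein (gene ID 50493; chr10:82833951-82897724, plus strand). Across the P2ry14-null libraries, in order, it reached 205, 180, 222, 223 and 186 CPM, against 260, 205, 199, 283 and 191 CPM in WT libraries. WT libraries 1 and 4 lay above all others and the remaining 3 WT libraries among the P2ry14-null values. Its difference on the log2 scale was -0.16 ± 0.11 (SE; 95% interval -0.40 to 0.07; edgeR adjusted p = 0.999), and with single libraries left out it ran from -0.22 to -0.07, the value without WT library 4.

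Slc7a11 encodes the cystine-glutamate exchanger that supplies cysteine for glutathione (gene ID 26570; chr3:50364936-50499087, minus strand), and lies 8.62 Mb from P2ry14 on the same chromosome. From library 1 to 5, P2ry14-null levels were 76.0, 81.5, 82.7, 85.2 and 96.9 CPM, against 91.3, 73.5, 135, 92.1 and 99.2 CPM in WT libraries. WT library 3 was the highest and WT library 2 the lowest of all 10, so the P2ry14-null values lay inside the WT range. The fitted log2 fold change came to -0.22 ± 0.13 (SE; 95% interval -0.49 to 0.06; edgeR adjusted p = 0.999). Without WT library 3 it was -0.08, and without WT library 2 it was -0.31.

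Gclm encodes the modifier subunit of glutamate-cysteine ligase, the first enzyme of glutathione synthesis (gene ID 14630; chr3:122245557-122267215, plus strand), 63.1 Mb from P2ry14. In order of library, P2ry14-null levels were 51.2, 51.0, 51.2, 50.5 and 46.6 CPM, against 52.6, 45.4, 50.5, 46.3 and 51.5 CPM in WT libraries. P2ry14-null libraries 1 to 4 lay within a narrow band and library 5 below it, inside the WT range. Means were 50.1 ± 1.99 CPM in P2ry14-null and 49.3 ± 3.23 CPM in WT libraries (SD, n = 5 each). Its fitted log2 fold change was 0.024 ± 0.05 (SE; 95% interval -0.09 to 0.14; edgeR adjusted p = 0.999), and with single libraries left out it ran from -0.0026 without WT library 2 to 0.051 without P2ry14-null library 5. An opposite-strand transcript, Gm17494, and a pseudogene, Gm6061, share 296 and 244 exon bases with Gclm.

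Nqo1 encodes a quinone reductase that is widely used as a readout of NRF2 (gene ID 18104; chr8:107388225-107403205, minus strand). Listed from library 1 to 5, P2ry14-null levels were 11.5, 11.0, 11.2, 10.6 and 13.3 CPM, against 13.3, 10.05, 10.09, 10.4 and 9.16 CPM in WT libraries. P2ry14-null library 5 and WT library 1 were the highest, and the groups overlapped. The log2 difference was 0.12 ± 0.10 (SE; 95% interval -0.09 to 0.33; edgeR adjusted p = 0.999), and with single libraries left out it ran from 0.06 without P2ry14-null library 5 to 0.21 without WT library 1, and was 0.07 without WT library 5. The intervals of Nqo1, Srxn1, Txnrd1, Slc7a11, Gclm and Hmox1 each held values on both sides of 0. Apart from Fth1 and Ftl1, the two-sided exact permutation p on CPM lay between 0.238 and 0.722, and for Ftl1 the exact p was 0.0952.

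Of 13 genes that control NRF2, 0 were called by edgeR or DESeq2 and 0 had an unadjusted p under 0.05. Nfe2l2 itself averaged 130 CPM in P2ry14-null and 134 CPM in WT libraries, and Keap1, its inhibitor, 26.6 CPM in P2ry14-null and 25.7 CPM in WT libraries. Maff, a small MAF partner, had the smallest p, at 38.2 CPM in P2ry14-null and 43.9 CPM in WT libraries (log2 -0.20 ± 0.10). Sqstm1, a receptor of selective autophagy that binds KEAP1, had -0.08 ± 0.06. The median of this list was -0.0033.

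Of 30 NRF2 target genes, which include 6 of the 10, 0 were called by either tool and 0 had an unadjusted p under 0.05, with a median of -0.019. Fth1, Ftl1 and Slc40a1, also NRF2 targets, are left out of these 30 and counted with the iron genes. There, Fth1 and Ftl1 had an unadjusted edgeR p under 0.05, so the count of 0 covers only the 30. The most abundant of the 30 was Gsr, glutathione reductase, at 1559 CPM in P2ry14-null and 1607 CPM in WT libraries. Slc7a11 and Me1 had the smallest p, and Me1, cytosolic malic enzyme, stood at only 0.137 CPM in P2ry14-null and 0.0877 CPM in WT libraries. Of 12 ferroptosis genes 0 were called by either tool, and 2 had an unadjusted p under 0.05, both lower in P2ry14-null. They were Gch1, the first enzyme of tetrahydrobiopterin synthesis (log2 -0.19 ± 0.07), and Slc3a2, the heavy chain that pairs with the Slc7a11 product (log2 -0.14 ± 0.06; 410 CPM in P2ry14-null and 451 CPM in WT libraries). Over all tested genes, 2.67% had an unadjusted p under 0.05 on the lower side and 4.13% on either side. The median of the ferroptosis list was -0.024.

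**Figure D5:**
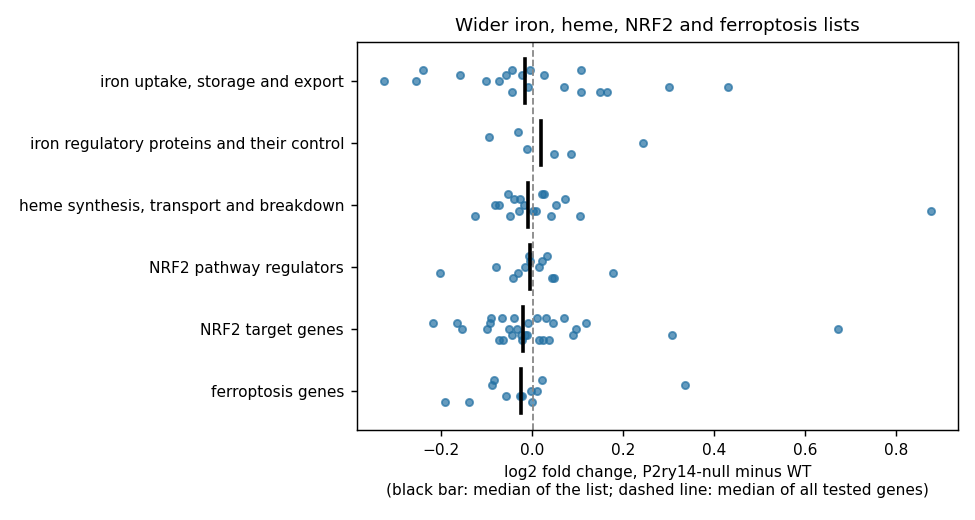
Log2 fold change, P2ry14-null minus WT, of each tested gene in 6 lists (1 point per gene; black bars are list medians, the dashed line the median of all tested genes). List medians lie between -0.024 and 0.019, and Fth1, at -0.32, is the lowest point of the iron list.

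Compared per length of exon, as CPM per kilobase (RPKM), the 10 genes spanned a wide range. Fth1 was the highest, at 776 ± 45.8 RPKM in P2ry14-null and 972 ± 123 RPKM in WT libraries (SD, n = 5 each), rank 32 in P2ry14-null and 27 in WT of 14091 genes with a length. Ftl1 followed at 602 ± 23.6 RPKM in P2ry14-null and 672 ± 71.1 RPKM in WT libraries. Txnrd1 came next at 28.7 ± 2.86 RPKM in P2ry14-null and 32.1 ± 5.82 RPKM in WT libraries, then Srxn1 at 20.1 ± 1.21 RPKM in P2ry14-null and 21.4 ± 2.03 RPKM in WT libraries. These 4 kept this order in 5 of 5 libraries of each group, without overlap between neighbours. The remaining 6 lay close together, from 5.44 RPKM (Slc40a1) to 7.96 RPKM (Gclm) in P2ry14-null and from 4.90 (Slc40a1) to 7.83 RPKM (Gclm) in WT libraries, and each neighbouring pair among them overlapped. Per length of the longest coding transcript the first 4 places were the same, while Slc40a1 took place 5, at 14.5 CPM per kilobase in P2ry14-null and 13.1 in WT libraries, so the order of the lower 6 depends on the length used.

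Among libraries of a group, the coefficient of variation was smaller in P2ry14-null than in WT for 9 of the 10 genes, Hmox1 being the exception, beside 65.4% of all tested genes. For Slc7a11 it was 9.16% in P2ry14-null and 23.0% in WT libraries, for Txnrd1 9.98% in P2ry14-null and 18.1% in WT, and for Fth1 5.91% in P2ry14-null and 12.6% in WT. The measure was formed after the values were seen and has no test. For Hmox1 it was 22.7% in P2ry14-null and 5.71% in WT libraries.

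Between libraries, with group means removed, 0 of the 45 pairs of genes correlated past the adjusted threshold. At an unadjusted permutation p under 0.05 there were 2 pairs by Pearson's r, Srxn1 with Txnrd1 and Ftl1 with Srxn1, and 2 by Spearman's rho, Srxn1 with Txnrd1 and Fth1 with Nqo1. The closest pair was Srxn1 and Txnrd1 (Pearson's r = 0.881, exact within-group permutation p = 0.0074, adjusted over 45 pairs 0.331; Spearman's rho = 0.867, permutation p = 0.0065, adjusted 0.294; n = 10 libraries). Without P2ry14-null library 2 and WT library 3, the 2 farthest from the Srxn1 median, r was 0.908. Ftl1 and Srxn1 had r = 0.827 (permutation p = 0.020, adjusted 0.455; rho = 0.709, permutation p = 0.063, adjusted 0.655) and r = 0.687 without WT libraries 1 and 3. Fth1 and Nqo1 had rho = 0.770 (permutation p = 0.020, adjusted 0.458) and r = 0.637 (permutation p = 0.102, adjusted 0.659). Without P2ry14-null library 3 and WT library 1, r was 0.255, so r rests on those libraries, and rho was not recomputed without them. Fth1 and Ftl1 had r = 0.680 (permutation p = 0.117, adjusted 0.659; rho = 0.636, permutation p = 0.129, adjusted 0.655), and r = 0.536 without P2ry14-null library 3 and WT library 1. Points of a library share its depth and cell makeup.

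For the other 9 genes, the genes most alike among the same 8515 are given as a description. Fth1 ran most like Tbc1d22a (r = 0.969), the glycolytic enzyme Tpi1 (0.958) and the tryptophan tRNA ligase Wars (0.950). Txnrd1 ran most like Tgm2 (0.968), a transglutaminase, Ccrl2 (0.968) and Litaf (0.968), and Srxn1 most like Nop53 (0.986), Clk3 (0.972) and Lrrfip2 (0.963). Ftl1 ran most like Il10ra (0.963), the interleukin-10 receptor, Phb2 (0.949) and the ribosomal protein gene Rpl3 (0.941). The top r were 0.953 for Tfrc (Acer3), 0.977 for Slc40a1 (Ctbs), 0.942 for Nqo1 (Blmh), 0.940 for Slc7a11 (Mbtps2) and 0.948 for Gclm (Serbp1). Without the 2 libraries farthest from the median of each gene, the top r of Tfrc was 0.828, of Slc40a1 0.972 and of Nqo1 0.745. For Slc7a11 and Gclm it was 0.791 and 0.931. For Fth1, Ftl1, Srxn1 and Txnrd1 it was 0.926, 0.924, 0.988 and 0.962.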

How the data were processed

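A single deposited table holds raw read counts, whole numbers, for 35725 genes in 10 libraries. Per the labels' protocols, RNA came from a TRIzol Plus extraction with DNase treatment, and libraries from the Illumina TruSeq RNA kit. STAR 2.5, Subread featureCounts 1.5.0-p1, DESeq2 and the build mm10 are named in the submitters' processing notes. Strand setting, annotation release and treatment of multi-mapped reads: not given in the sources used here. Groups and replicate numbers came from the sample titles. Chi-square values between libraries of a group were 22.2 or more per gene, so each library counted once. Since separate mice are not stated, p-values measure only the spread among these libraries, and that spread may be technical.

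edgeR 4.0.16 in R 4.3.3 (TMM, default low-count filter, genotype alone, Benjamini-Hochberg over 15586 genes) gave the main test, and DESeq2 1.42.0 an alternative. CPM uses TMM-scaled library sizes. Log2 fold changes are P2ry14-null minus WT, with SE the fold change over the square root of F. Log2 CPM used a prior count of 2. Correlations used all 14400 within-group permutations. The fit was tested on simulated data. RPKM used the exon union of GENCODE vM21. In each wider list the text names any called gene; where a list had none, the 2 lowest in p are named. Genes said to run alike with a member were the top 3 by r at a mean of at least 5 CPM (names of Gm plus digits or Rik left out). Alas1, Nfe2l2, Keap1, Gsr and the single marker genes were picked with values known. The members and lists were chosen with earlier results of these data known. The labels name no batch. Depth ran from 67.2 to 185 M (1000000) reads.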

Additional observations from a re-analysis of the deposited data

Results flagged for a closer look

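In 24 sets of 5 libraries (each of the 10 genes, P2ry14 and the Fth1 to Ftl1 ratio in each genotype), 2 had a library far from the others by Dixon's criterion, where chance gives about 1 in 20. Hmox1 in P2ry14-null library 2 stood at 13.6 CPM, with the next P2ry14-null library at 9.60 CPM, a gap of 0.741 of the range. That library also had the highest summed level of the class II, macrophage and monocyte, lung epithelial and lymphocyte marker lists, and their part was not tested. Gclm in P2ry14-null library 5 stood at 46.6 CPM, with the next library at 50.5 CPM, a gap of 0.838 of the range; WT libraries 2 and 4 lay at 45.4 and 46.3 CPM.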

How the results depend on the processing

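Across 14 alternatives (DESeq2, its size factors in edgeR, no low-count filter, the replicate block and each library left out), 138 of 140 values of the 10 genes kept their direction, and none of the 140 passed the threshold; the lowest adjusted p was 0.0616, for Fth1 in DESeq2. The 2 exceptions were Tfrc at 0.015 without WT library 3 (range with single libraries left out -0.12 to 0.015) and Gclm at -0.0026 without WT library 2 (-0.0026 to 0.051). The cause was not tested. Calls over all genes numbered 18 in DESeq2 and 3 to 5 with single libraries left out, against 6; P2ry14 passed in all 14. Same-numbered libraries correlated at -0.093 to 0.094 and 2 of 10 matched their own number best. No pairing by number was seen, though so few libraries cannot exclude one. With the replicate block edgeR called 6 genes over all and 0 of the 10, and Fth1 was at -0.32. Unadjusted p under 0.05 covered 1 to 4 of the 10, the most without WT library 3. The share of all tested genes under that p was not counted in the alternatives, so these counts have no background beside them. No pair of genes and no gene of the wider lists was called in any alternative run. The planned comparison with exon lengths was not run. The longest coding transcript was added after seeing the data.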
